A study of Mus musculus with 8 samples.

Results

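The 5 Serpina1 paralogues Serpina1a, Serpina1b, Serpina1c, Serpina1d and Serpina1e were described in femoral chondrocytes of unfractured mice and of mice with a healing fracture. They were chosen by their measured expression, as leading genes of 1 chondrocyte cluster in these same cells, so their level in chondrocytes relative to other cells, and the genes detected with them, are descriptions without a test. They are 5 of 26075 genes kept. The chondrocytes were the 14603 of 45328 cells with at least 40 unique molecular identifiers (UMIs) of Acan, Hapln1 and Matn3 together per 10000 UMIs, where 1 UMI stands for 1 captured transcript.

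Serpina1 genes encode alpha-1-antitrypsin, a serine protease inhibitor that is secreted mainly by hepatocytes and inactivates neutrophil elastase. The inhibitor offers an exposed loop, the reactive centre loop, as bait to the protease, and the loop sequence sets which protease is caught. The gene is single in humans and was multiplied in the mouse. Growth plate chondrocytes pass from resting and columnar proliferating cells to prehypertrophic and hypertrophic cells, which deposit type X collagen, and the cartilage of a fracture callus goes through similar stages.

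Droplet-based single-cell RNA sequencing had been carried out on bone stromal cells of C57BL/6 females aged 12 weeks. The Control group was unfractured. In the Fracture group the left leg had been broken at 10 weeks of age by bending under ketamine and xylazine anaesthesia, an intramedullary nail had been inserted, carprofen had been given as an analgesic, and femurs were taken at day 14. The labels do not say whether Control animals received these drugs. Suspensions of both groups had been depleted of lineage-positive, CD45+ and CD117+ blood cells with magnetic beads. The labels number 2 cell preparations in either group and 2 libraries of each. Libraries of 1 preparation were summed, so that n = 2 per group. Whether a preparation was 1 animal or a pool is not stated, and p-values measure only the spread between these preparations.

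The 8 libraries held 56543151 to 89126291 UMIs and no pair of them shared more than 23 cell barcodes. The gate held 1850 and 580 chondrocytes in Control preparations 1 and 2, and 5949 and 6224 in Fracture preparations 1 and 2, with a median depth of 14934, 19289, 12666 and 13563 UMIs per cell. Type II collagen (Col2a1) was at a median of 661 UMIs per 10000 in these cells, while the blood marker Ptprc had a UMI in 0.459% of them. Transcripts of other blood cells were more widespread, with a UMI of the haemoglobin gene Hbb-bs in 73.9% and of the basophil gene Prss34 in 9.67% of the gated cells. Cells just below the gate, at 30 to 40 UMIs per 10000, numbered 827 and had a Serpina1 UMI in 43.1% of Control and 10.7% of Fracture cells. The 681 cells just above it, at 40 to 50, had one in 50.5% and 9.04%. Markers of other classes inside the gate differed between the groups. The 4 basophil markers summed to 186 to 553 counts per 1000000 UMIs (CPM) in Control and 11.1 to 14.7 CPM in Fracture, the 4 osteoblast markers to 1928 to 2110 and 765 to 932 CPM, and the 5 erythroid markers to 183 to 466 and 1279 to 1294 CPM. The 4 fibroblast markers summed to 10.0 and 3.399 CPM in Control and 94.4 and 92.0 CPM in Fracture, all 4 called higher by edgeR, and the 4 bone marrow stromal markers to 265 and 79.9 against 53.1 and 60.2 CPM, with 3 called lower and 1 higher. The part of these markers in the results was not tested. Of 11 hepatocyte genes with values, Ahsg was at 0 in all 4 preparations, Alb reached at most 4 UMIs, and the summed level was 3.80 to 6.92 CPM.

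The paralogues lie in a row on the minus strand of chromosome 12. In GENCODE M21 (GRCm38), Serpina1a spans chr12:103853589-103863562, Serpina1b chr12:103728156-103830373, Serpina1c chr12:103894926-103904887, Serpina1d chr12:103763594-103773592 and Serpina1e chr12:103946931-103958975. The interval of Serpina1b, set by its longest transcript, encloses Serpina1d. Coding sequences were 96.3% to 98.5% identical over the 10 pairs, and 6.94% of 1239 aligned coding positions differed in at least 1 paralogue. The most variable stretch of 60 coding bases is shown because it lies in the last exon, 79 bases before the coding end, where the reactive centre loop is encoded. There 18 of 60 positions differed, marked by capitals, and the pairs were 80% to 91.7% identical.
Serpina1a, chr12:103853757-103853816, minus strand, GRCm38: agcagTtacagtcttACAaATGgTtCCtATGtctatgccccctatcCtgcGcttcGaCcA
Serpina1b, chr12:103728324-103728383, minus strand, GRCm38: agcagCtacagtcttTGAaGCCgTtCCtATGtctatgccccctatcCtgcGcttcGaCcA
Serpina1c, chr12:103895094-103895153, minus strand, GRCm38: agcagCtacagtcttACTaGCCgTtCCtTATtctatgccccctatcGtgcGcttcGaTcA
Serpina1d, chr12:103763762-103763821, minus strand, GRCm38: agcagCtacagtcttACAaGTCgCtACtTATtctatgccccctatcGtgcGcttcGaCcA
Serpina1e, chr12:103947100-103947159, minus strand, GRCm38: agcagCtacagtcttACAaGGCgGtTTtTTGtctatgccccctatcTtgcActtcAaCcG

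The stretches of 250 bases before the RefSeq start sites (GRCm38.p6) were compared because the members moved together. Of 191 columns aligned in all 5, 88.0% held the same base, and the pairs were 92.1% to 97.3% identical. Promoters are printed for the 3 members with most UMIs, with capitals where the 5 were not the same within the columns aligned in all 5. Outside those columns all bases are in lower case, whether shared or not.
Serpina1a, chr12:103863620-103863869, minus strand, GRCm38.p6: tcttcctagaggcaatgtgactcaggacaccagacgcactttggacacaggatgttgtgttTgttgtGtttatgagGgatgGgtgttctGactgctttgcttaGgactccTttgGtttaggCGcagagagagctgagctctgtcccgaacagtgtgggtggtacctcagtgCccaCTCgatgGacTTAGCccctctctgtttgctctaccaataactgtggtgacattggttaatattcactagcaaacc
Serpina1b, chr12:103738190-103738439, minus strand, GRCm38.p6: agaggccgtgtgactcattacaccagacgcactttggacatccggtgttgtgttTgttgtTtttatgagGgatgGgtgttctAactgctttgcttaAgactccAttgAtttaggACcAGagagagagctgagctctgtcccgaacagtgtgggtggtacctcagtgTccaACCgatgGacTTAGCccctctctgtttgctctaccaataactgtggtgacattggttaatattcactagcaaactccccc
Serpina1d, chr12:103773634-103773883, minus strand, GRCm38.p6: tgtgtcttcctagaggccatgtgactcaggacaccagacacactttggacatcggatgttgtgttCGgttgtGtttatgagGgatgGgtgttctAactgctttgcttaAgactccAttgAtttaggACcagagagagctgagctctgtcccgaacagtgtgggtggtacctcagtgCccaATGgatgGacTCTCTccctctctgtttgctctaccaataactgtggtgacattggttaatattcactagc
stretch of 55 bases shared by all 5: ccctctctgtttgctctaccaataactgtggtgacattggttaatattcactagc

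The shared stretch began 55 to 117 bases before the start site, with 117 in Serpina1e, so the 5 windows do not cover the same bases. This stretch holds TGTTTGC, a forkhead (FOX) motif. Its presence in all 5 promoters follows from the stretch being the same in all 5. Searched on both strands, TGTTTGC was present in 4.30% of 32851 RefSeq promoter entries. TGACTCA, an AP-1 motif, was in 4 of 5 promoters, not that of Serpina1e, and in 4.46% of all entries. The 4 TGACTCA matches lay upstream of where the Serpina1e window begins. The STAT motif TTCNNNGAA, the SOX core ACAATG and TATAAA were in none of the 5 windows, against 7.02%, 10.7% and 12.4% of all entries. The TATA variant TTAAATA was in the window of Serpina1e alone, against 4.18%, and lay downstream of where the other windows end. Bases outside the windows were not searched, so neither match sets Serpina1e apart. These matches describe letters only, and promoters this alike are not 5 independent cases. The libraries were read from the 3′ end of transcripts, and of windows of 50 bases in the last 500 bases of each transcript, 58.5% (Serpina1d) to 83.8% (Serpina1e) were found in no other member. Of windows of 90 bases there, 85.6% (Serpina1c) to 100% (Serpina1e) were found in no other member. Values of single paralogues are therefore uncertain where reads match several copies, and the summed values would be too low if such reads had been dropped.

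In Control chondrocytes Serpina1a and Serpina1d were the most abundant members, and Serpina1e was the least abundant in both groups. In Fracture, Serpina1b and Serpina1d lay close together, and their order turned in library 2 of preparation 2, at 41.6 and 43.5 CPM. Serpina1a stood at 707 and 1027 CPM in Control preparations 1 and 2 and at 61.1 and 65.5 CPM in Fracture preparations 1 and 2. Serpina1d stood at 603 and 714 CPM in Control and 51.9 and 50.7 CPM in Fracture. For both genes the Control values lay an order of magnitude above the Fracture values. Serpina1b stood at 369 and 559 CPM in Control and 60.6 and 55.2 CPM in Fracture. Serpina1c was at 28.1 and 70.7 CPM against 2.63 and 4.25 CPM. The Control preparations thus differed from each other, as a ratio, in Serpina1c more than in Serpina1a, Serpina1b or Serpina1d. Serpina1e was at 9.87 and 23.6 CPM against 0.479 and 0.497 CPM, the last pair resting on 38 and 45 UMIs. The groups did not overlap for any member, but 2 against 2 values separate easily, and the share of all genes that do so was not counted. Within Control the order of the means was Serpina1a, Serpina1d, Serpina1b, Serpina1c, Serpina1e. The means of Serpina1a (867 ± 226 CPM, SD, n = 2) and Serpina1d (659 ± 78.2 CPM, SD, n = 2) were separated by less than the spread of Serpina1a. Serpina1a was nevertheless above Serpina1d in both Control preparations. These CPM values count 3′ ends and are not divided by transcript length.

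Fracture was compared with Control in sums of UMIs per preparation with edgeR's quasi-likelihood test over 16881 genes, calling genes at a Benjamini-Hochberg adjusted p under 0.05. All 5 members were called lower in Fracture, beside 20.6% of all genes tested. The log2 fold change was -3.64 (SE 0.20, adjusted p = 9.53e-05) for Serpina1a, or 12.5-fold lower. It was -3.55 (SE 0.11, adjusted p = 2.29e-05) for Serpina1d and -2.87 (SE 0.21, adjusted p = 0.000249) for Serpina1b, which was 7.30-fold lower. The rare members gave -3.64 (SE 0.48, adjusted p = 0.00217) for Serpina1c and -4.88 (SE 0.48, adjusted p = 0.000748) for Serpina1e. The median over the members was -3.64 and over all genes -0.0053. Because 43.7% of all genes were called in 1 direction or the other, a call on its own sets the members little apart. The members were picked as leading genes of a cluster of these pooled cells, so large differences between groups that fill the cluster unequally can follow from that choice. Leaving out 1 preparation moved 2 members by more than 1.5-fold. Serpina1c was at -4.22 without Control preparation 1 and -2.88 without Control preparation 2, and Serpina1e at -5.47 and -4.19.

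**Figure D1:**
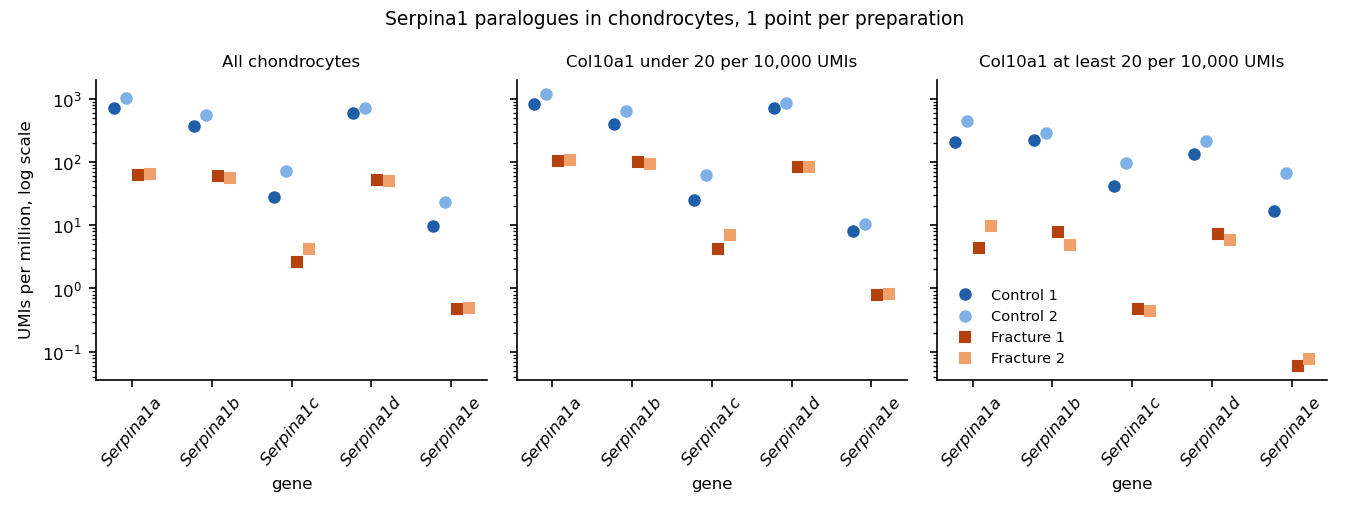
Level of each Serpina1 paralogue, in CPM on a log axis, in all chondrocytes (left), in those under 20 Col10a1 UMIs per 10000 (middle) and in those with at least 20 (right), with 1 point per preparation (circles Control, squares Fracture). Every Control point lies above every Fracture point of the same gene, for example 707 and 1027 against 61.1 and 65.5 for Serpina1a in all chondrocytes.

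The question whether the lower level in Fracture accompanied the larger share of hypertrophic cells was addressed by splitting chondrocytes at 20 UMIs per 10000 of Col10a1, which encodes type X collagen. Cells at or above it made up 15.6% and 19.8% of Control chondrocytes and 39.4% and 38.9% of Fracture chondrocytes. Below it, the summed Serpina1 level was 1988 and 2782 CPM in Control and 291 and 291 CPM in Fracture. At or above it, the sum was 619 and 1112 CPM in Control and 20.04 and 20.8 CPM in Fracture. The sum was thus lower in Col10a1-high cells of all 4 preparations, which did not hold for every member, and lower in Fracture on both sides of the split.

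Among cells low in Col10a1, edgeR's quasi-likelihood test called all 5 members lower in Fracture, beside 17.5% of 15954 genes (38.3% in either direction). The log2 fold changes were -3.14 for Serpina1a, -2.31 for Serpina1b, -2.72 for Serpina1c, -3.09 for Serpina1d and -3.38 for Serpina1e, with adjusted p between 4.17e-05 and 0.00641. Serpina1c moved to -3.33 without Control preparation 1 and to -1.96 without Control preparation 2. Among cells high in Col10a1, all 5 were again called lower, beside 14.2% of 14196 genes (29.3% in either direction). There the log2 fold changes were -5.55 (SE 0.44) for Serpina1a, -5.36 (SE 0.21) for Serpina1b, -7.15 (SE 0.45) for Serpina1c and -4.77 (SE 0.22) for Serpina1d, with adjusted p of at most 2.63e-05 for these 4. Serpina1e had 93 and 173 UMIs in Control and 2 and 3 UMIs in Fracture, and its fold change is not given. Serpina1c rested on 16 and 17 UMIs in Fracture. Its level there, like the summed level of 20.04 and 20.8 CPM, lay below that of all cells outside the gate. Those stood at 1.20 and 1.06 CPM for Serpina1c and 49.1 and 34.4 CPM for the sum, and included cells of no class at 82.8 and 68.8 CPM. Marker classes of Fracture lay on both sides, for example smooth muscle at 1.70 and 1.61 CPM and osteoblast at 48.9 and 5.94 CPM. These fold changes thus depend on a low Fracture level, and the part of background in it was not tested. In these cells Serpina1a moved to -4.87 without Control preparation 2 and to -6.29 without Fracture preparation 2, and Serpina1c to -7.73 without Control preparation 1 and -6.54 without Control preparation 2. Fold changes were larger in size among Col10a1-high cells for Serpina1a, Serpina1b, Serpina1c and Serpina1d, but the difference between the 2 stages was not tested.

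The order of the members changed with stage. In Col10a1-low Control cells Serpina1b was at 405 and 642 CPM, below Serpina1d at 719 and 864 CPM. In Col10a1-high Control cells Serpina1b was at 222 and 286 CPM, above Serpina1d at 135 and 216 CPM. The rare members went the other way from the abundant ones. Serpina1c was at 24.7 and 62.8 CPM in Col10a1-low and 42.1 and 97.1 CPM in Col10a1-high Control cells, and Serpina1e at 8.18 and 10.6 CPM against 16.7 and 66.7 CPM. Of the 173 Serpina1e UMIs behind the last value, 92 came from 1 cell. In Fracture both rare members were lower in Col10a1-high cells, Serpina1c at 4.21 and 7.08 CPM against 0.477 and 0.441 CPM. Stage was set by Col10a1 in the same cells, and these orders were not tested.

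The share of chondrocytes with at least 1 Serpina1 UMI was taken after every cell had been thinned at random to 2000 UMIs, with UMIs drawn without regard to gene, which left out 44 and 8 shallower Control cells and no Fracture cell. Positive cells were 1062 of 1806 (58.8%) and 364 of 572 (63.6%) in Control, and 496 of 5949 (8.34%) and 505 of 6224 (8.11%) in Fracture. The means of 61.2% ± 3.42 and 8.23% ± 0.158 (SD, n = 2) differed by -53.0 points, and the groups did not overlap. The 2-sided exact permutation test gave p = 0.333, the smallest it can give for 2 against 2. Without thinning the shares were 78.8% and 85.5% against 15.4% and 15.2%. The mean level within thinned positive cells was 3249 and 4128 CPM in Control and 2933 and 3135 CPM in Fracture, although a cell counts as positive only from 1 UMI in 2000 upwards, which sets a floor under these means. In unthinned counts the median positive cell held 13 and 23.5 Serpina1 UMIs in Control and 3 and 4 in Fracture, and at the equal depth of 2000 UMIs the medians were 3 and 4 against 2 and 2. Chondrocytes were a larger share of the Fracture preparations, and positive chondrocytes were 8.33% and 4.60% of all Control cells and 4.18% and 3.95% of all Fracture cells. Fewer positive cells and less RNA per cell are told apart here only as far as cells of low level pass the threshold of 1 UMI.

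Each abundant member followed the same split. Serpina1a was detected in 41.6% and 48.4% of thinned Control chondrocytes and 5.06% and 4.80% of Fracture chondrocytes, and Serpina1d in 41.5% and 44.4% against 5.21% and 5.01%. Serpina1b was detected in 21.4% and 28.5% against 3.90% and 4.27%. Serpina1c was found in 4.26% and 8.92% against 0.572% and 0.611%, and Serpina1e in at most 1.57% of any preparation.

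Outside the chondrocyte gate Serpina1 was rare. After the same thinning, positive cells were 0.521% to 1.25% of osteoblast marker cells, 0.585% to 2.84% of endothelial marker cells and 0.605% to 3.23% of bone marrow stromal marker cells over the 4 preparations. Erythroid marker cells reached at most 2.50%, and basophil marker cells stood at 1.33% and 0.664% in Control. The highest shares in larger classes were 4.02% of 224 fibroblast marker cells and 4.31% of 2089 cells of no class, both in Control preparation 1. The highest value, 5.88%, was 1 of 17 basophil marker cells in Fracture preparation 2. Before thinning the median depth was 11422 to 23956 UMIs in osteoblast marker cells and 4552 to 7535 in endothelial marker cells, against 12666 to 19289 in chondrocytes. The share in Fracture chondrocytes was above that of every other class with at least 20 cells. The gate held 105121 of all 117214 Serpina1 UMIs (89.7%), or 82.8% to 92.7% in each preparation. Outside it, 101 cells held at least 20 Serpina1 UMIs, of which 88 were assigned to no class and 100 had at least 10 UMIs per 10000 of the gate genes. A single cell carried 485 of the 525 Serpina1 UMIs of the smooth muscle marker cells in Control preparation 1. Levels outside the gate can therefore rest on 1 cell. In 228 fibroblast marker cells of Control preparation 1, Serpina1e stood at 25.3 CPM from 49 UMIs, above its 9.87 CPM in chondrocytes. It had 0 UMIs in the 78 such cells of Control preparation 2.

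**Figure D2:**
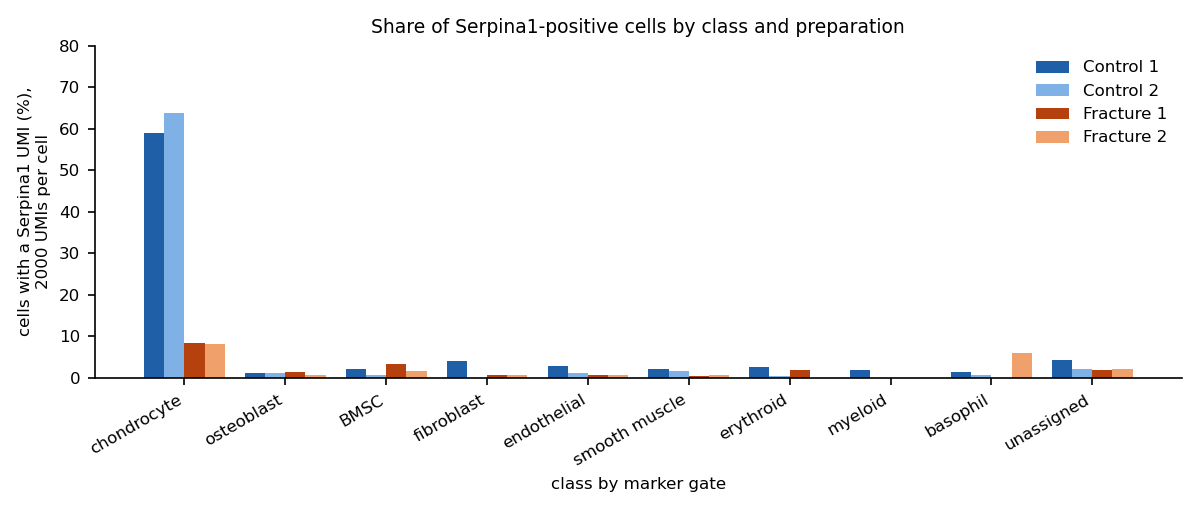
Percent of cells with at least 1 Serpina1 UMI after thinning to 2000 UMIs per cell, by marker class and preparation, with no error bar because each bar is 1 preparation. Chondrocytes reach 58.8% and 63.6% in Control and 8.34% and 8.11% in Fracture, and the tall basophil bar of Fracture preparation 2 is 1 of 17 cells.

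Serpina1 UMIs were spread over many Control chondrocytes and concentrated in few Fracture chondrocytes. In unthinned counts, 45.0% and 58.3% of Control chondrocytes held at least 10 Serpina1 UMIs, against 4.59% and 4.79% in Fracture. The 5% of cells with most Serpina1 UMIs carried 35.6% and 36.1% of them in Control and 89.0% and 89.5% in Fracture. The highest single cell held 449 and 608 UMIs in Control, and 287 and 520 UMIs in Fracture. Cells with at least 100 UMIs numbered 128 of 1850 and 76 of 580 in Control against 29 of 5949 and 33 of 6224 in Fracture, so cells of high level occurred in both groups and were a smaller part of the Fracture chondrocytes.

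Along finer steps of Col10a1 the unthinned share of positive cells stayed above that of Fracture at every step. It was 81.6% and 88.1% in Control cells under 5 Col10a1 UMIs per 10000 and 59.8% and 75% in those with at least 400. In Fracture it went from 23.8% and 23.0% to 4.03% and 3.95% over the same steps. Its last values were near the unthinned share outside the gate, 3.41% and 3.58% in Fracture, and are not told apart from it here. The step from 5 to 20 held only 12 cells in Control preparation 2.

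Another split used 5 genes of the callus list, C1qtnf3, Moxd1, 1520401A03Rik, Postn and Tnc. All 5 were called higher in Fracture chondrocytes, beside 23.1% of all genes tested. The list was chosen with earlier results of these data known, so these calls can follow from that choice. The split by it was chosen after values had been seen. Cells without a UMI of the 5 genes were 52.9% and 59.8% of Control chondrocytes but 7.63% and 6.84% of Fracture chondrocytes. In these callus-gene-negative cells, 73.1% and 79.8% were Serpina1-positive in Control and 43.6% and 48.1% in Fracture. Their summed level was 1543 and 2438 CPM in Control and 1032 and 1227 CPM in Fracture. At 10 or more callus UMIs per 10000 the Fracture share was 6.84% and 7.81% and the level 34.7 and 47.8 CPM, whereas the Control share was 93.0% and 95.5% in 86 and 22 cells. C1qtnf3 and Tnc were themselves higher in Serpina1-positive Control cells. Without C1qtnf3 in the sum, Control preparation 1 went from 79.7% at 0 to 52% of 50 cells at 2 to 10 UMIs per 10000 and 84.6% of 13 cells at 10 or more. Control preparation 2 went from 85.1% at 0 to 89.9% of 79 cells above 0 to 2 and 60% of 5 cells at 2 to 10. The Fracture share still went from 47.6% and 48.7% at 0 to 4.96% and 4.80% at 10 or more. Cells without a callus UMI were shallower in Fracture, with a median of 9000 and 9826 UMIs against 14592 and 18454 in Control, and the part of depth in their difference was not tested.

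**Figure D3:**
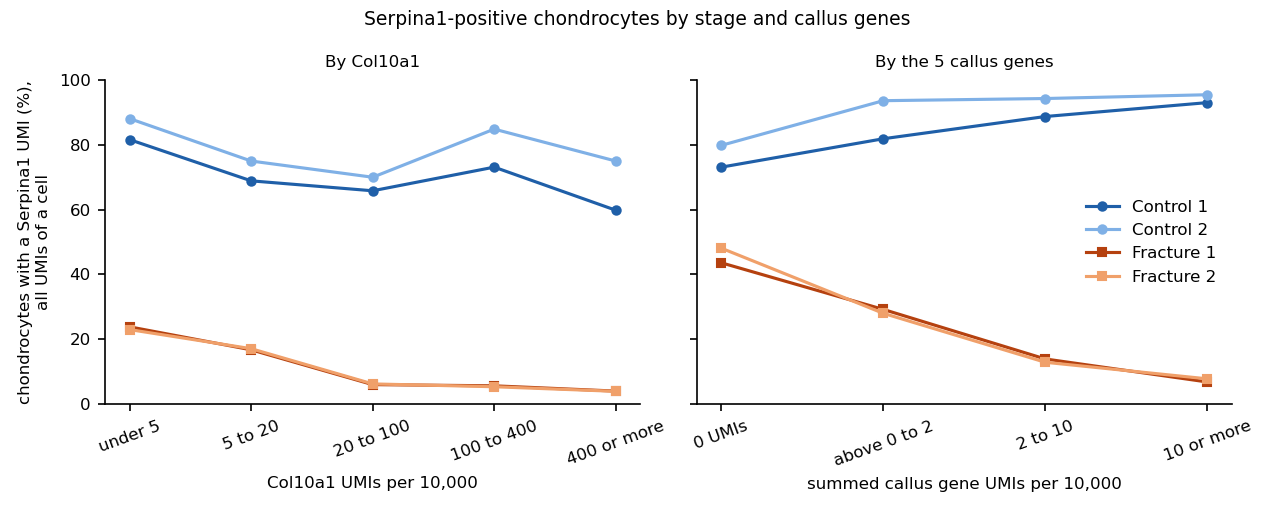
Percent of chondrocytes with at least 1 Serpina1 UMI, from unthinned counts, by steps of Col10a1 (left) and of the summed 5 callus genes (right), with 1 line per preparation. Fracture lines run from 43.6% and 48.1% without callus gene UMIs to 6.84% and 7.81% at 10 or more, while Control lines lie above them at every step, the last Control points resting on 86 and 22 cells.

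The make-up of the Serpina1 sum differed between the groups. Serpina1a gave 42.0% ± 1.21 (SD, n = 2) of it in Control and 35.9% ± 1.85 in Fracture, and Serpina1d 32.5% ± 3.76 and 29.1% ± 0.409. Serpina1b gave 22.4% ± 1.33 in Control and 32.8% ± 2.10 in Fracture. By preparation, Serpina1b was at 21.5% and 23.3% in Control and 34.3% and 31.3% in Fracture, so that the groups did not overlap and lay 10.4 points apart. The 4 libraries of each group spread from 19.2% to 25.3% in Control and from 29.2% to 34.5% in Fracture. Serpina1c gave 2.30% and 1.95%, and Serpina1e 0.780% and 0.277%. In Col10a1-high cells alone, the Serpina1b shares of the groups overlapped. There Serpina1b gave 1233 of 3442 and 742 of 2885 Serpina1 UMIs in Control, and 265 of 672 and 187 of 801 in Fracture. These shares are descriptions, and reads shared between paralogues can move them.

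Members were detected together in single cells. Among chondrocytes with at least 10 Serpina1 UMIs, 98.1% and 97.6% of Control and 96.3% and 95.3% of Fracture cells held Serpina1a, and Serpina1a, Serpina1b and Serpina1d were all present in 69.1%, 74.9%, 82.8% and 80.5% of cells of the 4 preparations. Their proportions nevertheless varied between cells beyond counting. In the 454, 219, 127 and 146 cells with at least 30 Serpina1 UMIs, the Serpina1b share had an SD of 21.8 to 27.1 points, 4.02 to 4.27 times the SD that binomial sampling of each cell's UMIs gives. The same ratio was 2.77 to 3.03 for Serpina1a and 3.14 to 3.46 for Serpina1d. The median Serpina1b share was 10.3% and 11.4% in Control cells, with 95% of cells under 71.6% and 67.7%. In Fracture cells the median was 30.8% and 28.1%, with 95% of cells under 80.8% and 80.4%. Serpina1b made up under 10% in 221 and 105 Control cells and 30 and 32 Fracture cells. It made up at least 50% in 66, 28, 45 and 37 cells. Across these cells, levels of Serpina1a and Serpina1d, as log2 of UMIs per 10000 plus 1, correlated at Pearson's r of 0.43 to 0.60 in the 4 preparations, and those of Serpina1b and Serpina1d at -0.19 to 0.04. Cells share library and depth, and these r values carry no test.

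**Figure D4:**
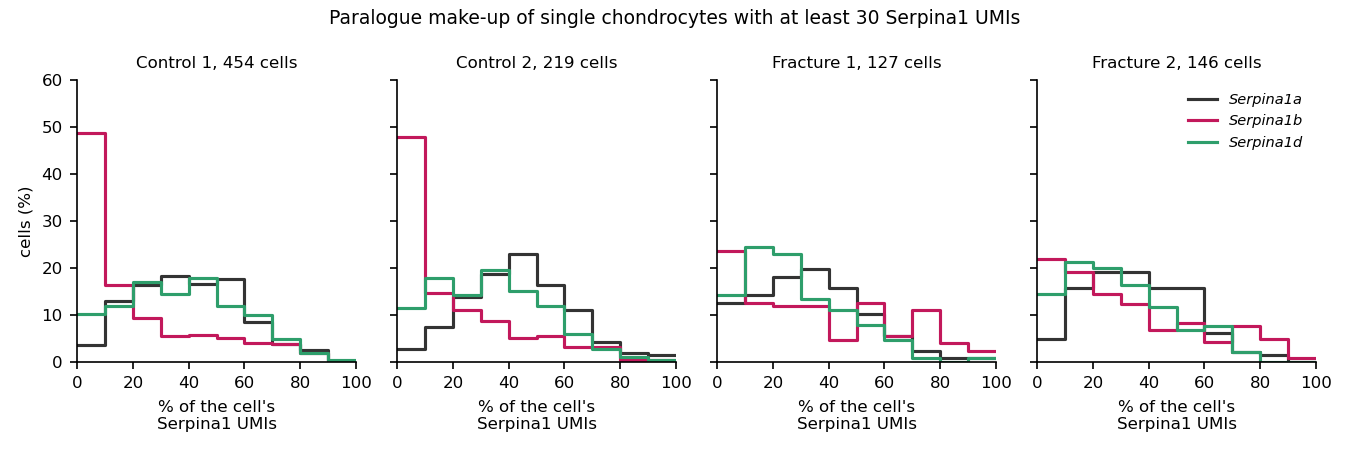
Distribution over single chondrocytes with at least 30 Serpina1 UMIs of the percent of a cell's Serpina1 UMIs that came from Serpina1a, Serpina1b or Serpina1d, in steps of 10 points, with 1 panel per preparation. Serpina1b has its peak under 10% in Control (221 of 454 and 105 of 219 cells) and reaches above 50% in 45 of 127 and 37 of 146 Fracture cells.

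Cells led by Serpina1b (at least 50% of the Serpina1 UMIs) were set beside cells poor in it (under 10%), within each preparation and as a description chosen after values had been seen. The 15 genes with the largest excess and the 15 with the largest deficit were picked in the 2 Control preparations, and 14 of each 15 had the same sign in both Fracture preparations. Among all genes of at least 50 CPM, 56.2% of those higher and 42.2% of those lower in both Control preparations kept their sign in both Fracture preparations. These include genes with small ratios, whereas the named genes were picked for large ones, so the shares are not of like sets. Genes higher in Serpina1b-led cells included Spp1, which encodes osteopontin, at log2 ratios of 4.80 and 3.90 in Control and 1.70 and 4.59 in Fracture. Timp1, an inhibitor of metalloproteinases, was at 3.98 and 3.81 in Control and 1.52 and 3.13 in Fracture. Fn1, which encodes fibronectin, was at 3.59 and 3.57 in Control and 2.84 and 3.30 in Fracture. R3hdml was at 3.78 and 3.74 in Control and 5.52 and 4.86 in Fracture. Its Serpina1b-poor Fracture cells stood at 0 and 3.18 CPM, so the Fracture ratios depend on the pseudocount of 5 CPM. In Serpina1b-led cells R3hdml was at 1552 and 1286 CPM in Control and 225 and 232 CPM in Fracture. These 4 genes were higher in the Serpina1b-led cells of all 4 preparations.

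Genes lower in Serpina1b-led cells included Apoe, a lipid carrier apolipoprotein, at log2 ratios of -2.04 and -3.89 in Control and -2.18 and -2.53 in Fracture. Il17b, a cytokine gene, was at -2.14 and -3.06 in Control and -1.36 and -1.28 in Fracture. Rspo4, which encodes an activator of Wnt signalling, was at -1.66 and -2.12 in Control and -1.30 and -2.37 in Fracture. Bglap, which encodes osteocalcin and is an osteoblast marker, was at -2.43 and -3.18 in Control and -1.48 and -2.93 in Fracture. The 2 exceptions were Chst1, at -0.06 in Fracture preparation 2, and C1qtnf3, which was at -2.53 and -2.85 in Control and 0.91 and 0.80 in Fracture. Among the other members, Serpina1a stood at -1.10 and -0.61 in Control and -1.62 and -1.39 in Fracture, and Serpina1d at -1.51 and -1.49 and -1.70 and -2.01. The ratios of these abundant members follow from the split itself. Serpina1e stood at 1.57 and 3.20 in Control and 1.32 and -0.06 in Fracture, so its sign was not the same in all 4. Col2a1 was at 0.27 to 0.33 in all 4 preparations, so both kinds of cell carried cartilage transcripts.

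Genes detected with the paralogues were found by comparing positive with negative chondrocytes, thinned to 2000 UMIs, as log2 of (CPM + 5) in positive over (CPM + 5) in negative cells. Among genes with a mean of at least 50 CPM in positive cells, the 15 with the highest smallest ratio were Pax1, Mgst2, Hspa1a, Ly6a, Stmn1, A2m, Dclk1, Gm2830, Baiap2, 1190002N15Rik, Rrm2, Hs3st3a1, Cd82, Crispld2 and 2810417H13Rik. Pax1, a transcription factor of the sclerotome, was at 1.32 and 1.54 in Control and 2.74 and 2.88 in Fracture. Mgst2, a microsomal glutathione transferase, was at 1.70 and 1.28 in Control and 3.24 and 2.68 in Fracture. A2m, which encodes the protease inhibitor alpha-2-macroglobulin, was at 1.08 and 1.07 in Control and 2.81 and 2.22 in Fracture. Stmn1 and Rrm2, genes of dividing cells, were at 1.09 and 1.55 and at 1.30 and 0.93 in Control. That each of these genes was higher in the positive cells of every preparation follows from how they were picked.

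Among genes with a mean of at least 50 CPM in negative cells, the 8 with the lowest largest ratio were Frzb, Col3a1, Inhba, C430049B03Rik, Col10a1, Ibsp, Rbp4 and Ptgis. Col10a1 was at -1.48 and -1.79 in Control and -2.71 and -3.05 in Fracture, and Ibsp, which encodes bone sialoprotein, at -1.46 and -1.75 in Control and -2.96 and -2.60 in Fracture. Frzb, a secreted inhibitor of Wnt signalling, was at -1.97 and -2.02 in Control and -3.38 and -2.95 in Fracture. Col3a1, which encodes type III collagen, was at -2.14 and -1.93 in Control and -3.23 and -2.91 in Fracture. All 23 genes kept their direction when positive cells needed 3 UMIs, when cells were thinned to 1000 UMIs and when only Col10a1-low cells were used. These settings drew on the same cells and add no independent support. The lower Col10a1 was present also among cells under 20 Col10a1 UMIs per 10000.

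**Figure D5:**
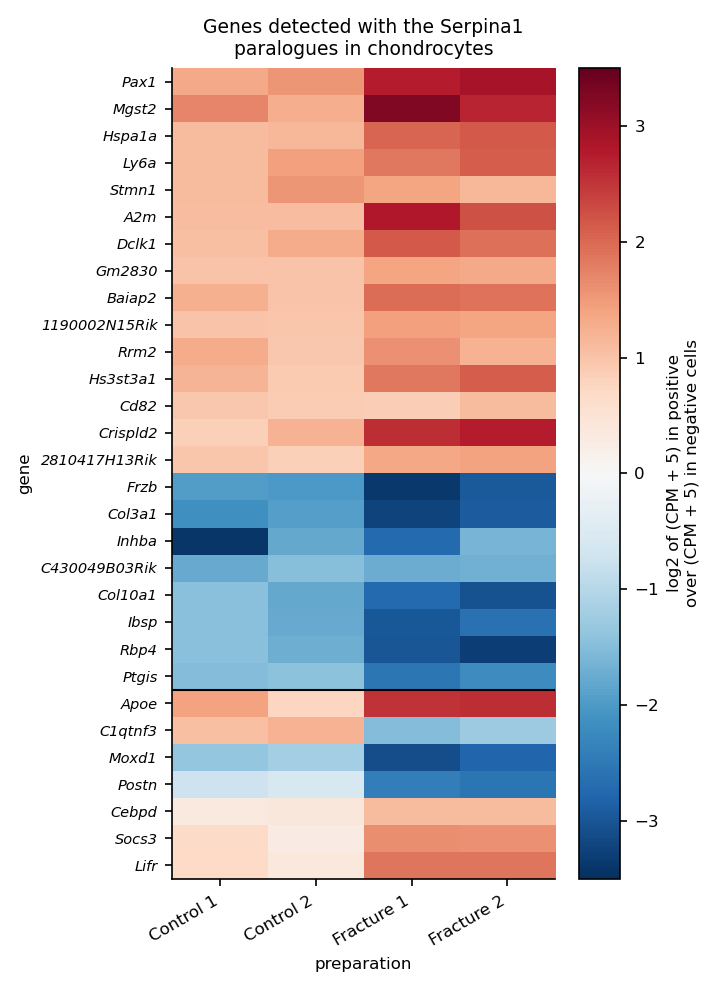
Colour map of log2 of (CPM + 5) in Serpina1-positive over (CPM + 5) in Serpina1-negative chondrocytes in each preparation, for the 15 highest and 8 lowest genes above the line and 7 genes of the lists below it. Pax1 runs from 1.32 to 2.88 and Col10a1 from -1.48 to -3.05, while C1qtnf3 is at 1.06 and 1.21 in Control and -1.52 and -1.27 in Fracture.

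By stage lists, 4 of 5 columnar proliferating genes (Fgfr3, Top2a, Mki67, Pcna) were higher in positive cells of all 4 preparations, beside 11.6% of all 21647 genes and 26.6% of 2839 genes with at least 50 CPM. Top2a, a topoisomerase of dividing cells, was at 0.74 and 1.01 in Control and 1.34 and 1.29 in Fracture. Fgfr3 was at 0.39 and 0.13 in Control and only 0.10 and 0.016 in Fracture. The fifth, Matn1, was lower in all 4. Of the hypertrophic genes 4 of 6 (Col10a1, Ibsp, Alpl, Vegfa) and of the prehypertrophic genes 4 of 7 (Ihh, Pth1r, Panx3, Mef2c) were lower in all 4, beside 5.81% of all genes and 15.6% of genes with at least 50 CPM. The prehypertrophic gene Slc38a3 was higher in all 4, at 0.26 and 0.17 in Control and 0.54 and 0.19 in Fracture. Of 6 resting genes with values, 2 (33.3%) were higher in all 4, near the share of genes with at least 50 CPM, and the others differed in sign between preparations. Sfrp5, a secreted Wnt inhibitor, was at 0.39 and -0.22 in Control and -2.95 and -2.45 in Fracture. Apoe was at 1.401 and 0.75 in Control and 2.53 and 2.60 in Fracture, and Pthlh, which encodes parathyroid hormone-related protein, at 1.21 and 0.74 and 0.65 and 0.89. Of the 8 cartilage check genes, 5 were lower in all 4 (Col2a1, Col9a1, Col9a2, Col11a1 and Comp) and 2 higher, among them the cartilage regulator Sox9. Col2a1 was at -0.38 and -0.33 in Control and -0.49 and -0.52 in Fracture, and Sox9 at 0.35 and 0.37 in Control and 0.78 and 0.72 in Fracture.

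Of 15 genes with values among hepatic and cytokine regulators, 5 were higher in positive cells of all 4 preparations and 1, Foxa2, was lower. These are 33.3% and 6.67% of the list, beside 26.6% and 15.6% of genes with at least 50 CPM, so the counts do not set the list apart. Lifr, the receptor of leukaemia inhibitory factor, was at 0.69 and 0.37 in Control and 1.86 and 1.86 in Fracture. Socs3, a target of STAT3 signalling, was at 0.66 and 0.28 in Control and 1.63 and 1.596 in Fracture. Cebpd, a transcription factor gene of the acute phase, was at 0.35 and 0.40 in Control and 1.12 and 1.10 in Fracture. Cebpb was the fourth and Nr3c1, the glucocorticoid receptor, the fifth. Foxa2 was at -0.69 and -0.57 in Control and -0.09 and -0.40 in Fracture. The liver factor genes Hnf4a and Foxa1 had at most 60 UMIs in the chondrocytes of any preparation, whereas Foxa3 stood at 59.4 and 61.9 CPM in Control and 64.5 and 60.5 CPM in Fracture.

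The same lists were read in the comparison of Fracture with Control over all chondrocytes with edgeR, where 23.1% of genes were called higher and 20.6% lower. Among the regulators, 5 of 13 tested were called higher and 5 lower. Lifr fell from 213 and 217 CPM to 82.1 and 82.1 CPM (log2 fold change -1.25, SE 0.06, adjusted p = 6.13e-05), and Foxa2 from 54.5 and 47.4 CPM to 20.04 and 18.6 CPM (log2 fold change -1.27, SE 0.08, adjusted p = 0.000132). Cebpb rose from 41.6 and 21.9 CPM to 90.3 and 81.5 CPM (log2 fold change 1.52, SE 0.24, adjusted p = 0.0038). Regulators thus moved both ways while the 5 paralogues fell.

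Of a list of 12 genes for the uptake, secretion and degradation of alpha-1-antitrypsin, 8 were called higher in Fracture and none lower, with a median log2 fold change of 0.32. Lman1, a cargo receptor for secreted glycoproteins, rose by 0.91 (SE 0.06, adjusted p = 0.000234, edgeR), Edem1 by 0.62 and Erlec1 by 0.51. The uptake receptor Lrp1, of the same list, was at 250 and 246 CPM in Control and 215 and 216 CPM in Fracture and was not called. Of 9 acute phase genes tested, 5 were called higher and none lower. Lcn2, which encodes lipocalin-2, rose from 1.10 and 1.43 CPM to 17.3 and 16.9 CPM (log2 fold change 3.98). Saa3 had 0 UMIs in both Control preparations and 607 and 494 UMIs in Fracture, and Saa1 had 2 and 0 UMIs in Control and 39 and 84 in Fracture. The 5 acute phase genes that were called thus moved the opposite way to the paralogues.

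Of the target proteases, 4 of 5 tested were called lower in Fracture. Ctsg, which encodes cathepsin G, was at 54.9 and 13.7 CPM in Control and 1.373 and 1.502 CPM in Fracture, and Elane, which encodes neutrophil elastase, at 1.597 and 0.984 CPM against 0.139 and 0.110 CPM. The others were Prtn3 and St14. Elane, Prtn3 and Ctsg are genes of myeloid blood cells. Inside the gate the 6 myeloid markers summed to 43.6 and 11.8 CPM in Control and 49.9 and 30.7 CPM in Fracture, with 2 called higher and 3 lower, while Ptprc went from 1.53 and 0.626 CPM to 0.189 and 0.221 CPM and all 4 basophil markers were called lower. The part of such cells in the protease values was not tested. Of 13 clade A serpins with values, 5 could be tested, of which 3 (Serpina3c, Serpina3f, Serpina3g) were called lower and Serpina3n higher, at 6.50 and 6.71 CPM in Control and 14.0 and 15.7 CPM in Fracture. The 3 lower ones stood at 3.16 CPM or less in every preparation. Among 15 other serpins tested, 4 were called higher and 1, Serpini1, lower. Serpinf1, which encodes pigment epithelium-derived factor, was at 101 and 64.8 CPM in Control and 258 and 239 CPM in Fracture (log2 fold change 1.71, adjusted p = 0.000971), and Serpine2, which encodes protease nexin 1, at 130 and 84.8 CPM against 214 and 206 CPM (1.09). Serpinh1, the collagen chaperone, was the most abundant of the listed serpins at 2667 to 3053 CPM and was not called. The lowest log2 fold change among these other serpins was -2.54 for Serpina3f, against -2.87 to -4.88 for the paralogues.

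Of the genes detected with the paralogues, 12 of the 15 higher in positive cells were called lower in Fracture over all chondrocytes. Of the 8 lower in positive cells, 7 were called higher. Over all genes tested, 20.6% were called lower and 23.1% higher. Pax1 was at 56.4 and 59.7 CPM in Control and 17.9 and 17.0 CPM in Fracture (log2 fold change -1.59, SE 0.07, adjusted p = 4.19e-05, edgeR), Mgst2 at 46.4 and 46.7 against 12.8 and 13.2 CPM (-1.70). Apoe, of the resting list and not among the 15, was at 695 and 610 against 47.2 and 50.7 CPM (-3.60). A2m rose from 20.4 and 21.4 CPM to 34.9 and 37.0 CPM (0.93), and Dclk1 and Baiap2 were not called. Of the genes lower in positive cells, Col3a1 rose from 15.2 and 6.17 CPM to 2043 and 2019 CPM (7.61), as fibroblast markers inside the gate also rose, and Frzb from 69.3 and 71.2 CPM to 590 and 561 CPM (3.17), while Inhba did not pass the test (adjusted p = 0.103, edgeR). Both comparisons use the same chondrocytes. Positive cells were 58.8% and 63.6% of thinned Control and 8.34% and 8.11% of thinned Fracture chondrocytes. Genes picked between positive and negative cells can therefore differ between the groups through how they were picked, and these counts are not a separate result. By stage lists, all 6 hypertrophic and all 5 callus genes were called higher in Fracture. The lists were chosen with earlier results of these data known, so the callus calls can follow from that choice. Of the columnar proliferating genes 3 of 5, and of the articular genes 3 of 5, were called lower and none higher. Resting genes were split, with 3 of 6 each way. The prehypertrophic genes gave 3 of 7 higher and 1 lower, the cartilage check genes 3 of 8 higher and 1 lower, and the hepatocyte genes 1 higher and 1 lower of 4 tested.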

How the data were processed

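The members and gene lists were chosen with earlier results of these data known. The deposited files hold unnormalized UMI counts, with 1 entry for a gene in a barcode, which the authors made from 10x Chromium 3′ libraries. The submitters' processing notes name bcl2fastq 2.19.1.403, UMI-tools 1.0.0, STAR 2.7.3a, featureCounts of Subread 1.6.4 and mm10, and the study's methods name a different route. Which was used, and how reads matching several paralogues were treated, was not settled. Both libraries of Control preparation 1 hold no gene whose name starts with U, so 282 such genes were left out of all libraries and are not analysed here.

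Of 48903 barcodes, 45328 with 500 to 6000 genes and at most 25% mitochondrial UMIs were kept, and of the genes those in at least 3 cells. No doublet caller was run, and cells passing another class's marker gate were left out in an alternative. UMIs were summed per preparation and tested with edgeR 4.0.16 (R 4.3.3; quasi-likelihood, TMM scaling, genes filtered on low counts, Benjamini-Hochberg), with DESeq2 1.42.0 as an alternative, after a test on simulated data. Shares used cells thinned to 2000 UMIs, and log2 ratios a pseudocount of 5 CPM. Genes named as detected with the members were, at a mean of at least 50 CPM in positive or negative cells respectively, the 15 with the highest smallest ratio and the 8 with the lowest largest ratio over the 4 preparations. From each list, the 3 called genes with the largest change could be named; Serpina3n, St14, Serpinh1, Lrp1, Foxa3 and the genes named from the positive against negative cells of the lists were chosen after their values were seen. Sequences came from RefSeq and GENCODE M21, and promoters were aligned with MAFFT 7.526. No per-sample column was left unmapped.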

Additional observations from a re-analysis of the deposited data

Results flagged for a closer look

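Library 2 of Control preparation 2 stood apart from the other 3 Control libraries in chondrocytes. Serpina1a was at 1272 CPM there against 701 to 798 CPM in the others, Serpina1d at 819 against 597 to 616 CPM, Serpina1e at 36.6 against 8.55 to 11.4 CPM, and the sum at 2969 against 1683 to 1856 CPM. Of the 198 Serpina1e UMIs in that library, 92 came from 1 cell. In Fracture, library 1 of preparation 2 stood apart for Serpina1c, at 5.83 CPM against 2.40 to 2.64 CPM, and at 2.85% of the Serpina1 UMIs against 1.46% to 1.68%. These are 6 of 22 groups of 4 libraries examined by Dixon's gap, which chance passes in about 1 in 20 groups, and the groups share libraries.

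For 3 of the 59 list genes with a mean of at least 50 CPM in positive or negative cells, the ratio of Serpina1-positive to Serpina1-negative chondrocytes had opposite signs in the groups. The mean log2 ratio in Fracture minus that in Control was -1.25 for Mmp13, a collagenase of hypertrophic cartilage, 1.92 for Cilp, an articular cartilage protein gene, and -2.53 for C1qtnf3. Cilp was at -2.10 and -0.07 in Control, so its sign in Control preparation 2 was barely set. Below 50 CPM, Tnc was also at opposite signs, 0.56 and 0.98 in Control and -0.65 and -0.57 in Fracture. Between Serpina1b-led and Serpina1b-poor cells, 1 of 30 genes did the same, C1qtnf3, with a difference of 3.54. None of these differences was tested.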

How the results depend on the processing

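All 5 members were called lower in Fracture under each of 13 alternatives in all chondrocytes, in Col10a1-low and in Col10a1-high cells, with a largest adjusted p of 0.0366 (edgeR or DESeq2). The difference in the thinned share of positive cells, -53.0 points, was -66.9 without thinning, -44.5 at 1000 UMIs per cell, -34.7 when 3 UMIs were required and -36.4 in Col10a1-high cells alone, and leaving out 1 preparation gave -55.4 to -50.6. The Serpina1b share of the sum, 10.4 points higher in Fracture, was 12.7 points higher outside the chondrocyte gate. With replicate numbers as a block, the replicate block called 5 members and 70 list genes against 69 without it. Same-numbered preparations deviated together at r = 0.0530 over 16881 genes in 2 pairs, so the numbers were not taken as a pairing. All genes called numbered 3906 higher and 3473 lower, and 2157 and 1410 without Fracture preparation 1, or 2061 and 1391 without Fracture preparation 2, where the lone preparation is assumed to vary like the others and fewer samples are used. With the gate at 80 UMIs per 10000, the log2 fold change of Serpina1e moved from -4.88 to -5.53 in all chondrocytes and from -3.38 to -4.05 in Col10a1-low cells. Without library 2 of Control preparation 2, left out after its values had been seen, it was -4.27 in all chondrocytes. Serpina1e in Fracture rests on 38 and 45 UMIs, which limits its fold change.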
